A study of Sus scrofa with 10 samples.

Results

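The 9 genes described here, out of 43499 loci in the deposited table, are 4 chemokine receptors (CCR1, CCR2, CXCR4 and CX3CR1) and 5 chemokines (CCL2, CCL5, CXCL10, CXCL12 and CXCL14) measured by RNA-seq in pig ovaries. They were found by gene symbol among the 19972 protein-coding loci, and each symbol was given by a single such locus or by the one with the most counts. CCR1, CXCL10 and CXCL14 were chosen by their measured difference between the groups, since all 3 are in the study's own list of differentially expressed (DE) mRNAs from these libraries. Their group differences are therefore given as a description, with no test. The other 6 genes were added as receptors or ligands of the same system, with earlier results of these libraries known.

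The ovaries came from gilts (young female pigs) of 1 genetic background at 234 days of age, with a library for each of 5 control pigs and 5 pigs of the rpFSH treatment group. All 10 pigs had received altrenogest, a progestin given in the feed to hold oestrus back, in a daily amount of 20 mg that began at 210 days and lasted 18 days. After 2 days without it, the rpFSH treatment group received 1000 IU of rpFSH (recombinant pig follicle stimulating hormone) and the control group an equal volume of saline. The tissue was the ovary left once the surface follicles had been removed, so the libraries are of mixed tissue. Its make-up of cells is not given by the labels or the methods. The question behind the comparison is which transcripts of the ovary go with the ovulatory response to rpFSH.

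Chemokines are small secreted proteins that bind receptors coupled to G proteins on leukocytes and other cells and direct their movement along a gradient. CC, CXC and CX3C name the spacing of conserved cysteines, and each receptor is named for the class it binds. CCR1 binds CCL5 among other CC chemokines, CCR2 is the main receptor of CCL2, CXCR4 is the receptor of CXCL12, and CX3CR1 is that of the membrane-bound CX3CL1. CXCL10 is an interferon-induced ligand of CXCR3, and CXCL14 is a chemokine made by epithelia and stroma. In the ovary, leukocytes enter the wall of the follicle around ovulation, a step that resembles inflammation.

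CCR1 was among the genes that the study measured again by qRT-PCR. The study reports that the fold changes of these genes by qRT-PCR matched those of its RNA-seq. The pair of primers for CCR1 is shown here and was not aligned to the locus. Both are written 5′ to 3′ as the study's list of primers gives them, and each is 20 nt long with 55% GC.
CCR1 forward: cctttctgccttcgtgcaac
CCR1 reverse: gtgacaaggcctcccttcat

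Levels are given as FPKM (fragments per kilobase of transcript, scaled to library depth), which takes length into account and so can be set side by side between genes. Total counts per pig lay between 64873797 and 75114003, and a count of 3, taken as the floor, stood for 0.0399 to 0.0462 CPM. The genes described here had between 39 and 19274 counts in a pig, above that floor. Genes of the ovarian marker lists were detected in all 10 libraries, though not every gene in every pig. The stromal collagen gene COL1A1, which is not particular to the ovary, stood between 67.0 and 685 FPKM. The oocyte growth factor gene GDF9 stood between 2.36 and 4.92 FPKM, although the extraction text of the labels names adipose tissue. Of the other oocyte genes, BMP15 ran from 0.460 to 5.66 FPKM and FIGLA from the lowest value of 0.0001 to 0.355 FPKM. Some libraries stood apart within their group. A list of 6 markers of the lining of the oviduct is called ciliated epithelium here, though its gene OVGP1 is a product of secretory cells. The mean log2(FPKM + 1) of this list was 2.59 and 3.77 in control pigs 2 and 5 and between 0.748 and 1.02 in the other 8 pigs. The steroidogenic gene STAR reached 532, 448 and 121 FPKM in control pig 2, rpFSH pig 1 and rpFSH pig 4, against 1.52 to 5.67 elsewhere.

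Groups were compared with edgeR on the deposited counts over 15170 protein-coding loci, and a locus was called at an unadjusted P under 0.05 with a log2 fold change above 1 or below -1, as the study did. This rule called 473 loci, or 3.12%. Of these, 81 were higher in the rpFSH treatment group (0.534%) and 392 were lower (2.58%). At an unadjusted P under 0.05 alone there were 717 loci (4.73%). No locus had a Benjamini-Hochberg adjusted p under 0.05, the smallest being 0.981, while DESeq2 gave 86 such loci. FPKM did not overlap between the groups at 95 loci (0.626%), and none of the 9 genes was among them.

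Of the 6 genes tested, none was called and CX3CR1 alone had an unadjusted P under 0.05 in edgeR. With DESeq2, CX3CR1 and CCR2 had one, and with limma neither did. All of their adjusted p in edgeR were 1.00. The log2 fold change was above 0 in 8 of the 9 genes, with a median of 0.90, beside a median of -0.01 and 48.3% above 0 over all tested loci. As 3 of the 9 were chosen for being higher, this count is a description. The pig with the highest FPKM was in the rpFSH treatment group for 8 genes, and it was rpFSH pig 4 for 4 of them, rpFSH pig 3 for 3 and rpFSH pig 5 for 1. The number of a pig is the one in its label, and equal numbers do not pair animals.

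**Figure D1:**
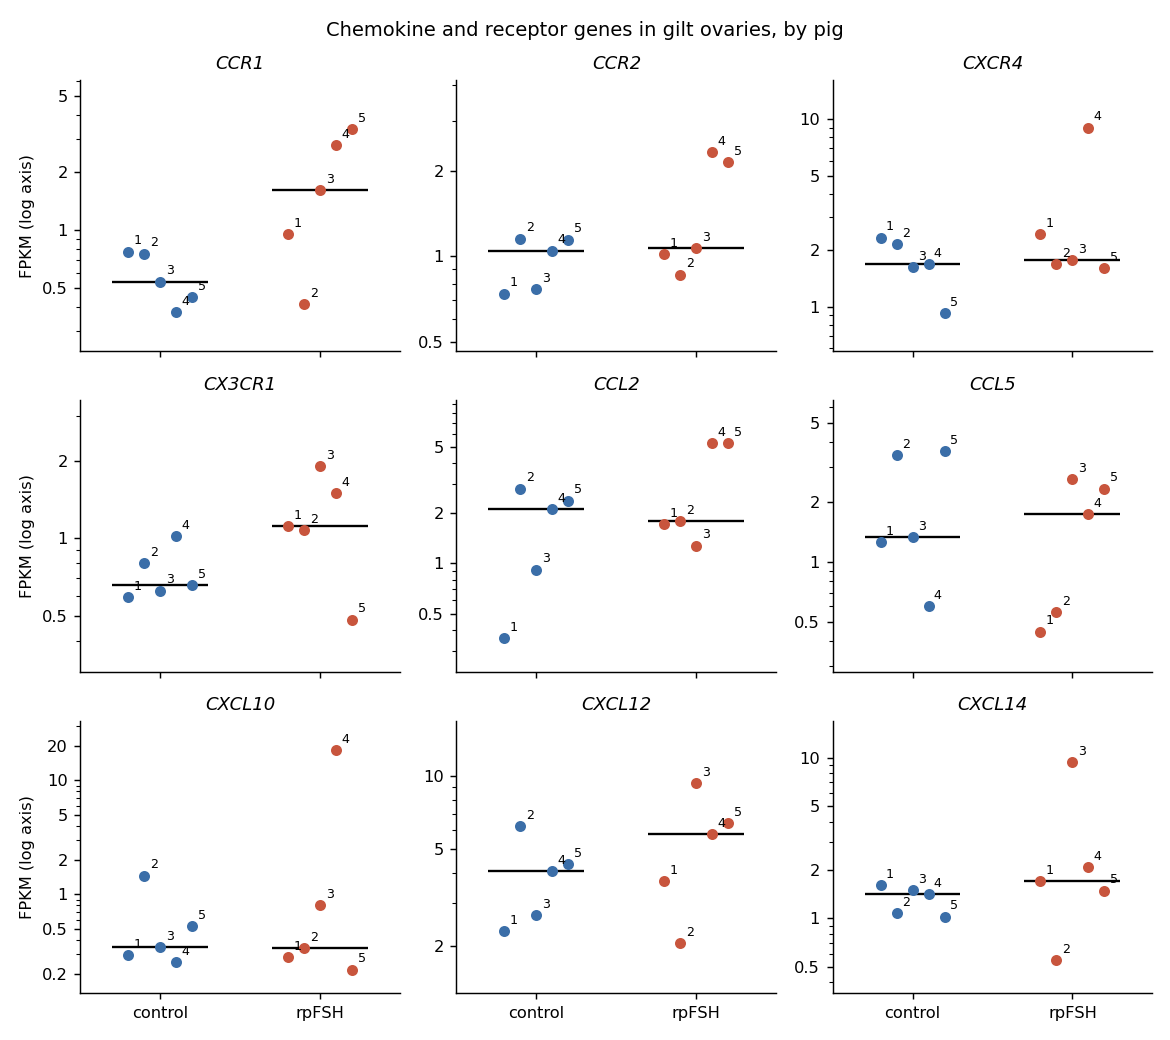
FPKM (log axis) of the 9 genes in each of 5 control (blue) and 5 rpFSH (red) pigs, numbered as in the labels, with the median of each group as a line. The groups overlap for every gene, and single pigs of the rpFSH treatment group (4 for CXCR4 and CXCL10, 3 for CXCL14) lie far above the rest.

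The receptors came first. CCR1, a receptor of monocytes, macrophages and neutrophils, lies on chromosome 13 of Sscrofa11.1 at 29227222-29233960 on the minus strand. Its FPKM was 0.774, 0.756, 0.542, 0.375 and 0.451 in control pigs 1 to 5 and 0.955, 0.413, 1.62, 2.77 and 3.37 in rpFSH pigs 1 to 5. Of the 5 rpFSH pigs, 4 were above every control pig, and rpFSH pig 2 was among the controls. The group means were 0.580 ± 0.179 and 1.83 ± 1.23 (SD, n = 5 each), with an edgeR log2 fold change of 1.71 (SE 0.51). Without any single pig, this value ran from 1.37 (without rpFSH pig 5) to 1.96 (without rpFSH pig 2). The counts behind it were 99 to 195 in the control pigs and 110 to 838 in the rpFSH pigs.

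CCR1 is also a gene of macrophages, and 12 macrophage markers were followed beside it. None of the 12 was called, beside 3.12% over all tested loci. The mean log2(FPKM + 1) of the 12 was 2.13 ± 0.401 among controls and 2.12 ± 0.514 among the rpFSH pigs (SD, n = 5 each, two-sided exact permutation p = 0.976). Their median log2 fold change in edgeR was 0.21, of the opposite sign to the small difference in that mean. Within the rpFSH treatment group, the mean was 1.60 and 1.63 in pigs 1 and 2 and 2.62, 2.66 and 2.08 in pigs 3, 4 and 5. The mannose receptor gene MRC1 stood at 4.58 and 6.50 FPKM in rpFSH pigs 1 and 2 and between 11.9 and 13.5 in rpFSH pigs 3 to 5, which were also the pigs with the most CCR1. The complement gene C1QB, another macrophage product, was 2.10 and 3.32 FPKM in rpFSH pigs 1 and 2, 9.81 in pig 3, higher still in pig 4 and 3.93 in pig 5. CD163, C1QA, C1QC, AIF1, MSR1 and TYROBP were likewise higher in each of rpFSH pigs 3 to 5 than in rpFSH pigs 1 and 2. The remaining markers did not follow this order. The merged locus of CD68, the most abundant of the 12, was 44.4 FPKM in rpFSH pig 1 and 24.8 to 31.8 in rpFSH pigs 2 to 5, and CD14, CSF1R and FCER1G did not follow CCR1 over the rpFSH pigs either. CD14 was 1.93 FPKM in rpFSH pig 1 and at most 1.48 in the others, and CSF1R was 2.40 in pig 2 and 1.99 in pig 5. The highest macrophage mean was in control pig 2, at 2.82, where CCR1 was 0.756 FPKM. That pig had 10.9 FPKM of MRC1 and 16.3 FPKM of C1QB, the highest C1QB of all pigs. The part of macrophage number in the CCR1 level was not tested, and in whole tissue more cells of a type and more RNA per cell cannot be told apart.

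CCR2, the receptor that brings monocytes out of the blood, lies 142 kb from CCR1 on the plus strand (chromosome 13, 29368747-29376350). Its FPKM was 0.739, 1.15, 0.766, 1.05 and 1.14 in the control pigs and 1.01, 0.861, 1.07, 2.33 and 2.15 in the rpFSH pigs. Only rpFSH pigs 4 and 5 were above the control range. The medians were 1.05 and 1.07 FPKM, so the difference of the means (0.970 ± 0.203 and 1.48 ± 0.696, SD, n = 5 each) lay in 2 pigs. edgeR gave a log2 fold change of 0.68 (SE 0.31), with an unadjusted P of 0.0516 and a DESeq2 unadjusted P of 0.0389.

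CXCR4 is a receptor of most leukocytes and of many progenitor and endothelial cells (chromosome 15, 15663492-15670979, plus strand). The control pigs had 2.34, 2.17, 1.63, 1.69 and 0.926 FPKM, and the rpFSH pigs had 2.44, 1.68, 1.77, 9.01 and 1.60 FPKM. Apart from rpFSH pig 4, every rpFSH pig but the one at 2.44 was within the control range. CXCR4 had a log2 fold change of 0.96 (SE 0.50, edgeR unadjusted P 0.0833) which came to 0.19 without rpFSH pig 4.

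CX3CR1, a receptor of monocytes and tissue macrophages, lies on chromosome 13 at 23944369-23957486 (minus strand). Its FPKM was 0.591, 0.805, 0.628, 1.02 and 0.658 in the control pigs. In the rpFSH pigs it was 1.12, 1.08, 1.91, 1.50 and 0.484. Pigs 1 to 4 of the rpFSH treatment group were above all control pigs and rpFSH pig 5 was below all of them, although that pig had the highest CCR1. CX3CR1 thus had a log2 fold change of 0.79 (SE 0.35, edgeR unadjusted P 0.0484), short of the limit of 1. It was 0.99 (unadjusted P 0.00660) without rpFSH pig 5 and 0.56 (unadjusted P 0.142) without rpFSH pig 3.

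Of the CC ligands, CCL2, the monocyte attractant that binds CCR2, lies on chromosome 12 at 40798116-40800026 (minus strand). It was 0.356, 2.82, 0.918, 2.11 and 2.39 FPKM in the control pigs and 1.72, 1.79, 1.28, 5.28 and 5.26 FPKM in the rpFSH pigs. As for CCR2, rpFSH pigs 4 and 5 were above every control pig and the other 3 were not. The means gave a log2 fold change of 0.90 (SE 0.58, edgeR unadjusted P 0.148), whereas the median was lower in the rpFSH treatment group (1.79 against 2.11 FPKM).

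CCL5, a chemokine of activated T and NK cells and a ligand of CCR1, was the gene with a fold change below 0 (chromosome 12, 39648598-39659121, plus strand). The control pigs had 1.25, 3.44, 1.34, 0.599 and 3.60 FPKM and the rpFSH pigs had 0.446, 0.560, 2.60, 1.74 and 2.33 FPKM. The values were spread widely in both groups, and the 2 highest were those of control pigs 2 and 5, which also had the ciliated epithelium markers. CCL5 had a log2 fold change of -0.32 (SE 0.62, edgeR unadjusted P 0.610), which was 0.60 without control pigs 2 and 5. The median was instead higher in the rpFSH treatment group (1.74 against 1.34 FPKM). An unannotated locus on the same strand overlaps CCL5, so the reads of the pair may have been divided between them.

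CXCL10 lies on chromosome 8 at 71690758-71696162 (minus strand), within the span of ART3 on the other strand. Its FPKM was 0.295, 1.46, 0.345, 0.255 and 0.527 in the control pigs. In the rpFSH pigs it was 0.281, 0.339, 0.807, 18.3 and 0.218. A single ovary, that of rpFSH pig 4, was more than 10 times above all others, and rpFSH pig 5 was below every control pig. The log2 fold change of 2.84 (SE 1.29) became -0.38 without rpFSH pig 4, and the medians were 0.345 and 0.339 FPKM. The neighbouring ligands of the same receptor differed. CXCL11 was 1.93 FPKM in rpFSH pig 4 and at most 0.408 elsewhere, whereas CXCL9 was highest in rpFSH pig 3, at 0.707.

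The interferon-stimulated genes stood out in the same library. Of 15 tested loci of that list, 7 were called higher, beside 0.534% over all tested loci. All of the 7 calls were lost without rpFSH pig 4, and the median log2 fold change of the list went from 1.54 to 0.09. The antiviral gene RSAD2 was 35.6 FPKM in rpFSH pig 4 and 0.167 to 0.643 FPKM in the others, and MX1 was 85.6 against 2.46 to 6.99 FPKM. The mean log2(FPKM + 1) of the 15 loci was 4.36 in rpFSH pig 4 and 1.28 to 1.98 in the other 9 pigs, with no difference passing the test between the groups (exact permutation p = 0.357). The part of an interferon response in the CXCL10 level was not tested.

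CXCL12, the ligand of CXCR4 and a product of stromal and endothelial cells, had the highest mean level of the 9 (chromosome 14, 91516433-91552752, plus strand). It was 2.31, 6.24, 2.68, 4.07 and 4.35 FPKM in the control pigs and 3.70, 2.05, 9.38, 5.78 and 6.43 FPKM in the rpFSH pigs. The highest value was in rpFSH pig 3 and the lowest in rpFSH pig 2. Between the groups, CXCL12 had a log2 fold change of 0.55 (SE 0.39, edgeR unadjusted P 0.186). It was 0.25 without rpFSH pig 3 and 0.79 without control pig 2.

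CXCL14 lies on chromosome 2 at 137803992-137813156 (minus strand). The control pigs were close together, with 1.62, 1.08, 1.49, 1.42 and 1.03 FPKM. The rpFSH pigs had 1.70, 0.551, 9.35, 2.08 and 1.49 FPKM, so that the lowest and the highest of the 10 values were both in that group. The log2 fold change of 1.27 (SE 0.64) was 0.18 without rpFSH pig 3, whose CXCL10 and CXCR4 were not raised in the same way.

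The 3 genes chosen from the DE list thus had different patterns. CCR1 was above the control range in 4 of 5 rpFSH pigs, CXCL14 in 3 and CXCL10 in 1. The highest value was in rpFSH pig 5 for CCR1, rpFSH pig 3 for CXCL14 and rpFSH pig 4 for CXCL10. The coefficient of variation over the 10 pigs was 88.0% for CCR1, 117% for CXCL14 and 247% for CXCL10, and it was lowest for CCR2, at 45.2%.

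**Figure D2:**
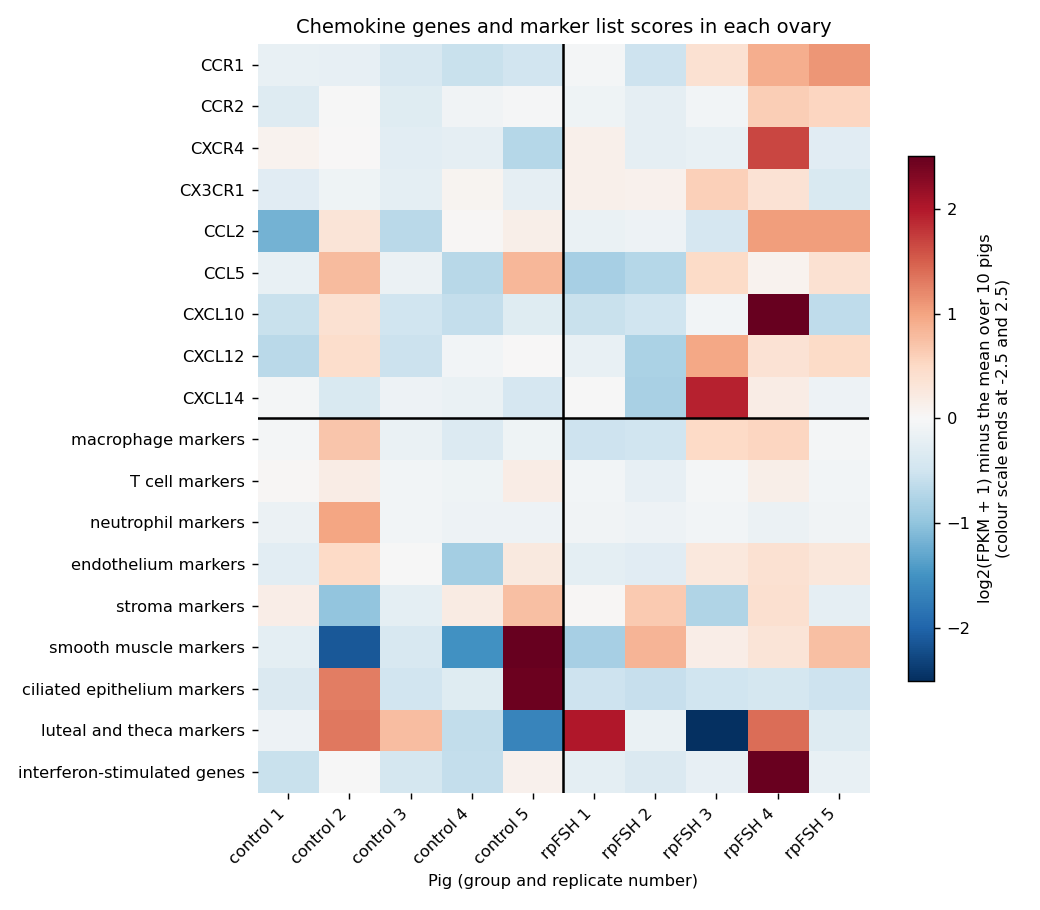
Heat map of log2(FPKM + 1) minus its mean over the 10 pigs (colour, with the scale ending at -2.5 and 2.5), for the 9 genes above the line and for the means of 9 marker lists below it. Columns are pigs. The columns of rpFSH pigs 4 and 5 are both high in CCR1, CCR2 and CCL2, and that of rpFSH pig 3 is the highest in CXCL14. CXCL10 and the interferon-stimulated genes are high together in rpFSH pig 4.

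The mean FPKM over all pigs fell in the order CXCL12 (4.70), CXCR4 (2.53), CCL2 (2.39), CXCL10 (2.29), CXCL14 (2.18), CCL5 (1.79), CCR2 (1.23), CCR1 (1.20) and CX3CR1 (0.979). Neighbours in this order were compared within pigs by exact sign-flip permutation of log2(FPKM), with no pseudocount. None of the 8 neighbouring pairs passed after Benjamini-Hochberg adjustment over them. The nearest were CXCL12 over CXCR4 (8 of 10 pigs, exact p = 0.0156, adjusted 0.0781) and CCL2 over CXCL10 (9 of 10 pigs, exact p = 0.0195, adjusted 0.0781). Single pigs set several places in this order. CXCL10 was above CXCL14 in only 2 of 10 pigs, and CCR1 above CX3CR1 in only 3. Without rpFSH pig 4 the means were 0.503 FPKM for CXCL10, 1.81 for CXCR4 and 2.07 for CCL2, and without rpFSH pig 3 they were 1.38 for CXCL14 and 1.70 for CCL5.

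Levels of the genes were then followed over the 10 pigs in all 36 pairs, on log2(FPKM + 1). Of these, 33 had an r above 0 and 1 passed adjustment, the receptor CCR2 with its ligand CCL2. Their Pearson's r was 0.917 (permutation p = 5e-05, adjusted 0.0018) and their Spearman's rho 0.915 (permutation p = 0.00049, adjusted 0.0176). Leaving out the 2 pigs farthest from the median of CCR2, rpFSH pigs 4 and 5, gave an r of 0.850, leaving out the 2 farthest for CCL2 gave 0.914, and removing the group means gave 0.900. The control pigs stood in the same order in both genes. In the rpFSH treatment group, pigs 4 and 5 were the highest in both, while pigs 1 to 3 stood in the reverse order. On CPM with TMM factors, the pair still passed with Pearson's r and not with Spearman's rho.

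The other pairs of a ligand and its receptor did not pass the test. CCL5 with CCR1 had an r of 0.300 (permutation p = 0.393) and a rho of 0.224 (p = 0.535). Without control pigs 2 and 5, the 2 farthest for CCL5, that r was 0.747, without the 2 farthest for CCR1 it was 0.263, and with the group means removed it was 0.576. CXCL12 with CXCR4 had an r of 0.165 (p = 0.681) and a rho of -0.0303 (p = 0.946), with 0.248 and -0.126 without the 2 pigs farthest for CXCL12 and for CXCR4. CCR1 with CCR2 had an r of 0.853 (permutation p = 0.00896, adjusted 0.161) that rested on rpFSH pigs 4 and 5, as it was 0.163 without them and rho was 0.479 (p = 0.169). In the same way CXCR4 with CXCL10 had an r of 0.904 (permutation p = 0.0442, adjusted 0.237), a rho of 0.297 (p = 0.407) and an r of 0.216 without rpFSH pig 4 and control pig 5.

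**Figure D3:**
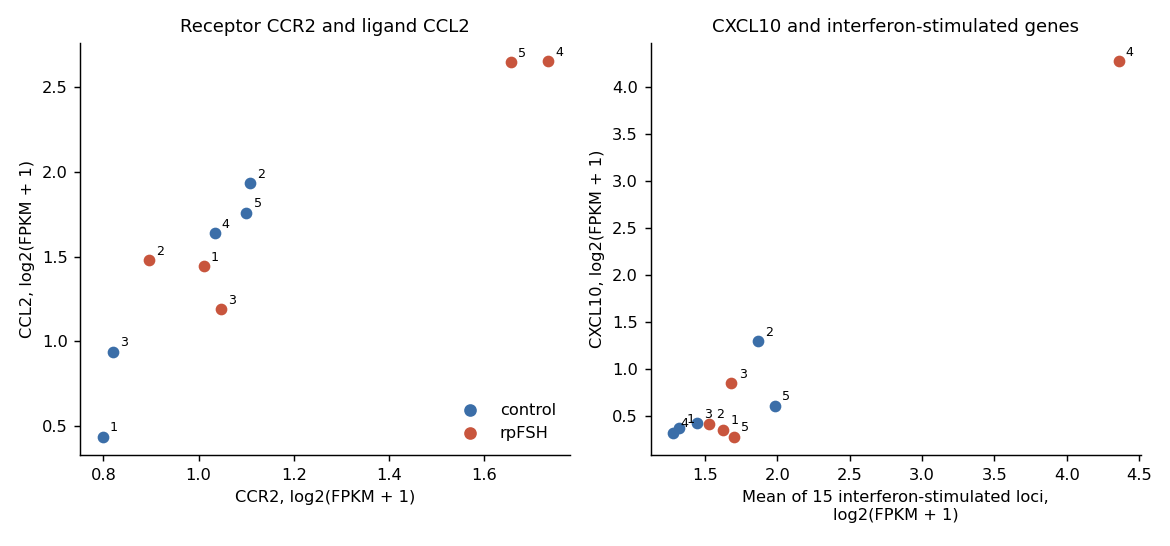
Left, CCL2 against CCR2, and right, CXCL10 against the mean of 15 interferon-stimulated loci, all as log2(FPKM + 1), with a point for each control (blue) and rpFSH (red) pig. Over the 10 pigs CCL2 and CCR2 have an r of 0.917, though rpFSH pigs 1 to 3 stand in the reverse order. In the right plot rpFSH pig 4 lies alone at 4.36 on the horizontal axis.

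Of the 11315 protein-coding loci that averaged 1 FPKM or more, the profile most like that of CCR1 over the 10 pigs was that of the transglutaminase gene TGM2 (r = 0.939), followed by the locus of HIP1 (0.928) and the kinase gene MAP3K8 (0.924). CCR2 was most like the locus of IFITM3 (0.944), CCL2 (0.917) and the interleukin 13 receptor gene IL13RA1 (0.911), and CCL2 was most like CCR2, FAM98C (0.906) and IL13RA1 (0.899). CCL5 was most like ST6GALNAC2 (0.949), the lymphocyte adaptor gene LCP2 (0.948) and ENSSSCG00000033009 (0.948). For CXCL10 these were DTX3L (0.994), the merged locus of DDX58 and TOPORS (0.992) and IFIT2 (0.988), and the merged locus was also near CXCR4 (0.933), after RFLNA (0.940) and OCRL (0.935). CX3CR1 was most like the clock gene PER3 (0.903), FAM45A (0.900) and EIF6 (0.866), CXCL12 like TRAF3IP2 (0.917), ELL (0.902) and SHANK3 (0.897), and CXCL14 like THOC1 (0.934), ENSSSCG00000005508 (0.926) and ENSSSCG00000034793 (0.925). Leaving out the 2 pigs farthest from the median of each of the 9 genes gave an r from 0.106 (ENSSSCG00000005508 with CXCL14) to 0.987 (DTX3L with CXCL10). The merged locus of DDX58 came to 0.667 with CXCL10 and 0.347 with CXCR4, HIP1 to 0.589 with CCR1 and RFLNA to 0.653 with CXCR4. All of the others stood at 0.726 or more, among them TGM2 (0.942), OCRL (0.822) and IFIT2 (0.822). These r are descriptions over 10 libraries.

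CCR1 and CCR2 belong to a cluster of receptor genes on chromosome 13, in the order CCR9, CXCR6, XCR1, CCR1, CCR3, CCR2 and CCRL2 among the genes shown. The midpoints of CCR9 and CCRL2 were 186 kb before and 173 kb after that of CCR1. None of the 5 shown beside CCR1 and CCR2 was called (3.12% over all tested loci). The log2 fold changes of the nearest, XCR1 (a dendritic cell receptor) and CCR3 (an eosinophil receptor), were 0.63 (SE 0.51, edgeR unadjusted P 0.240) and -0.38 (SE 1.07, unadjusted P 0.730), at means of 0.142 and 0.105 FPKM. CXCR6, inside the span of FYCO1, stood at 1.91 FPKM with -0.10 (SE 0.23, unadjusted P 0.678).

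**Figure D4:**
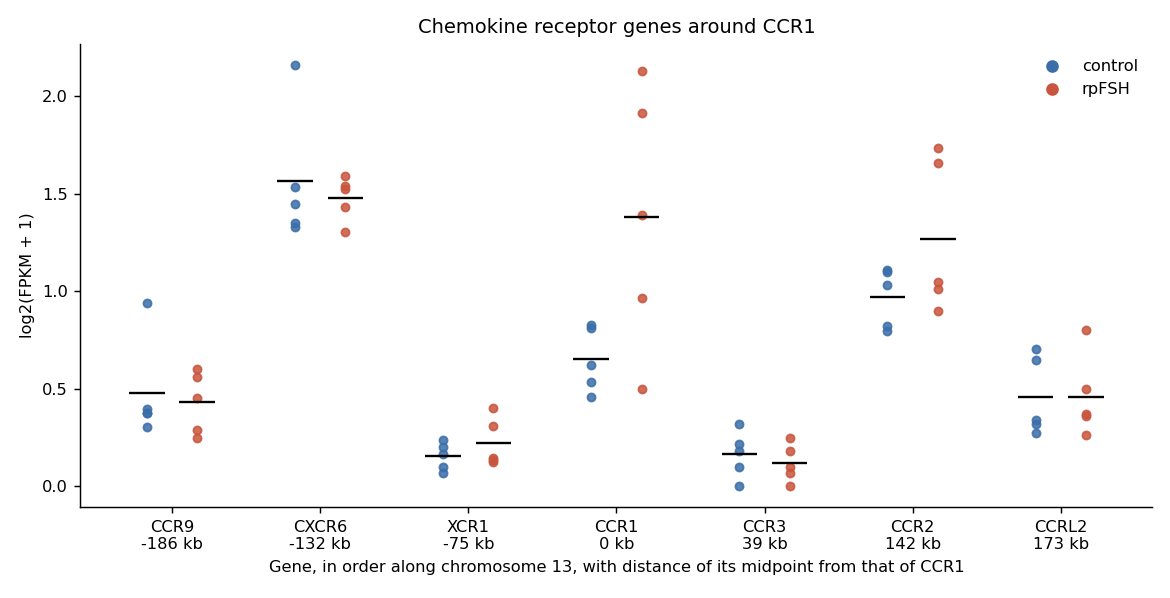
log2(FPKM + 1) of 7 chemokine receptor genes around and including CCR1 in each control (blue) and rpFSH (red) pig, with the group means as lines. Genes are in order along chromosome 13 with the distance of their midpoint from that of CCR1 in kb. The highest rpFSH pig is above all controls for XCR1, CCR1, CCR2 and CCRL2, and the groups overlap in all 7.

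The rest of the chemokine system was measured through 60 further symbols, of which 39 had a locus and 28 were tested. None of the 28 was called (3.12% over all tested loci), and 1, ACKR3, had an edgeR unadjusted P under 0.05 (4.73% over all tested loci). The median log2 fold change was 0.05, and 15 of 28 were above 0. Without control pigs 2 and 5, which carried the ciliated epithelium markers, 3 were called (CCL19, CCL21 and ACKR3) and the median was 0.60. Without control pig 5 alone there were also 3, CCL17, CCL19 and ACKR3. Over all 15170 tested loci, 423 and 373 were called in these 2 settings.

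By class, 9 other CC ligands were tested, with a median log2 fold change of 0.41, and 6 of the other CXC, CX3C and C ligands, with -0.31. The most abundant was CCL21, which brings lymphocytes and dendritic cells into lymphatic vessels, at 15.7 FPKM, more than any of the 9 genes above. It was followed by CCL26 (6.85 FPKM), an eotaxin, CX3CL1 (2.30 FPKM), the ligand of CX3CR1, and CCL14 (2.06 FPKM). CX3CL1 stood between 1.38 and 3.51 FPKM in all pigs with a log2 fold change of 0.04 (SE 0.25, edgeR unadjusted P 0.873). CXCL8, the neutrophil attractant, ran from the table's lowest value of 0.0001 to 8.99 FPKM in the control group, and its pig relative AMCF-II from 0.0001 to 4.49 FPKM. In the rpFSH treatment group, CXCL8 ran from 0.156 to 3.69 FPKM and AMCF-II from 0.0001 to 2.04 FPKM. Their log2 fold changes were -0.66 (SE 1.41, edgeR unadjusted P 0.652) and -0.99 (SE 1.52, unadjusted P 0.527).

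Of the other conventional receptors 8 were tested, with a median of -0.11. The 5 atypical receptors, which do not signal through G proteins, had a median of 0.34. ACKR3 takes up CXCL12 and was the most abundant of them, at 5.87 FPKM, above CXCR4. It was 3.23, 4.24, 3.76, 3.13 and 8.06 FPKM in the control pigs and 3.34, 6.07, 8.21, 8.88 and 9.82 FPKM in the rpFSH pigs. Pigs 3 to 5 of the rpFSH treatment group, the 3 with the most CCR1, were above every control pig. The log2 fold change was 0.78 (SE 0.33, edgeR unadjusted P 0.0400) and it was 1.07 without control pig 5. ACKR2, which removes inflammatory CC chemokines, stood at 3.32 FPKM with 0.94 (SE 0.56, unadjusted P 0.127), and ACKR4 at 1.26 FPKM with -0.31 (SE 0.23, unadjusted P 0.206).

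**Figure D5:**
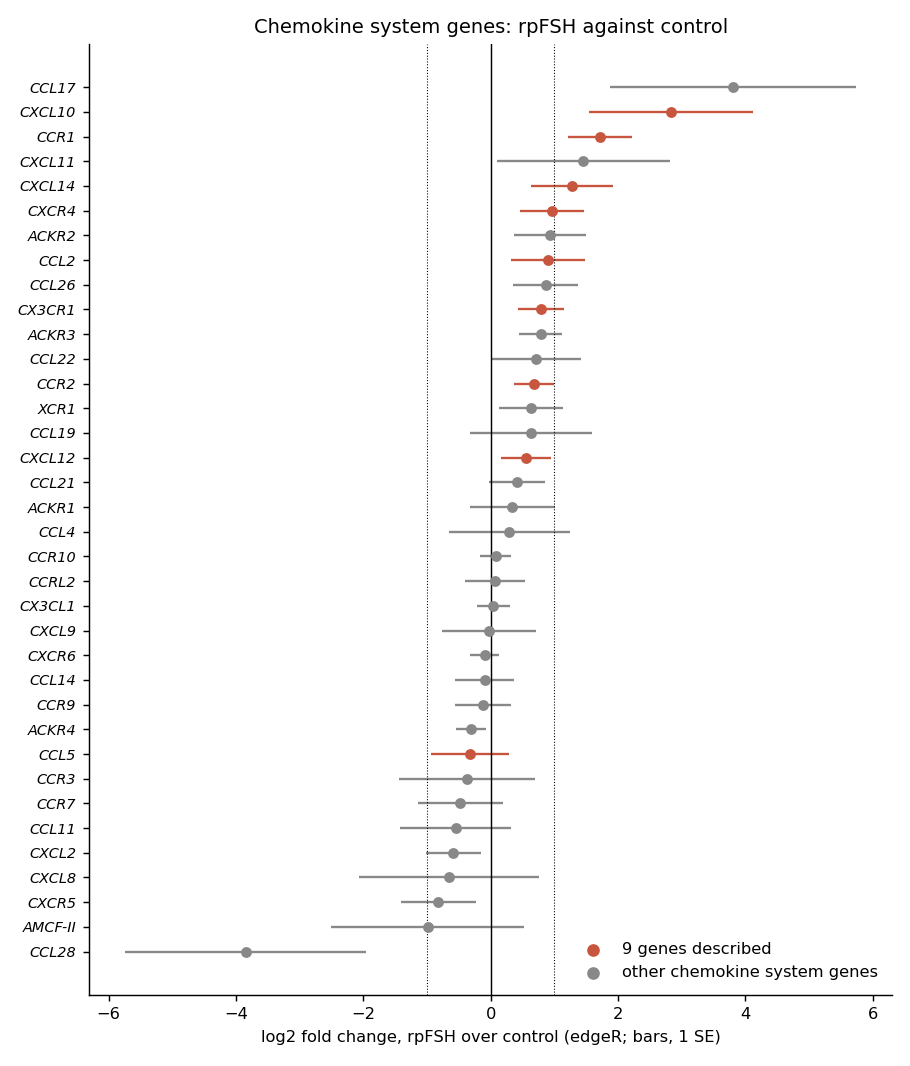
edgeR log2 fold change (rpFSH over control, bars 1 SE) of the 9 genes (red) and of other tested chemokine system genes (grey), sorted, with dotted lines at -1 and 1. Of the 9, 8 lie above 0, while the grey points lie on both sides, with CCL17 and CCL28, both near the lowest level in most pigs, at the ends.

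Downstream of the receptors, 25 genes of G proteins, kinases, exchange factors, arrestins and RGS proteins were tested, none was called and the median log2 fold change was -0.06. Of 12 tested genes that induce chemokines or sense inducers, none was called, with a median of 0.09. All 9 genes carried the KEGG terms Chemokine signaling pathway and Cytokine-cytokine receptor interaction in the deposited table. Of the other loci with these terms, 143 and 172 were tested. In the former, 1 was called higher (ADCY8) and none lower, and in the latter 4 were called higher and 1 lower. Over all 15170 tested loci 3.12% were called, 0.534% higher and 2.58% lower, so a small list holds few calls or none at that share.

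Leukocyte lists were described in the same libraries, beside 2.58% of all tested loci called lower. None of 9 tested T cell genes was called (median -0.63), GZMB was called lower among 5 NK genes, JCHAIN among 3 B cell genes, and S100A8 and S100A12 among 3 neutrophil genes. All of these calls were lost without control pigs 2 and 5. In control pig 2, S100A8 was 7.62 FPKM against at most 0.187 elsewhere. GZMB was 0.328 and 0.524 FPKM in control pigs 2 and 5 and at most 0.0569 in the other 8 pigs. Of 6 ciliated epithelium markers, 5 were called lower, and without control pigs 2 and 5 none was and their median log2 fold change went from -3.16 to -0.13. Of the 15 list means compared, this list alone had an exact permutation p under 0.05 (0.0159, adjusted over the 15 lists 0.238), at 0.837 to 3.77 among controls and 0.748 to 0.878 among the rpFSH pigs. The part of these differences in the chemokine values was not tested beyond leaving out the libraries named above.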

How the data were processed

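The authors made 1 library for each of 10 pigs, and according to the methods used Cutadapt for trimming, HISAT2 and Bowtie2 for mapping (the submitters' processing notes name Bowtie and Sscrofa11.1), and StringTie and Ballgown for assembly and quantification. Per the methods rRNA was removed, while the labels name poly(A) selection. The labels also write "untreated" for the saline group and "fpFSH" for the treated one. The deposited table gives the authors' FPKM and a whole-number count for each locus and pig, and how the counts were made is not given in the sources used here.

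Loci were tested at a mean FPKM of at least 0.1. Counts went into edgeR 4.0.16 (quasi-likelihood test, TMM) in R 4.3.3, in place of the Ballgown test of the study, with Benjamini-Hochberg adjustment over all 15170 loci. A pseudocount of 1 was used for log2(FPKM + 1). Exact permutation used all 252 assignments of pigs to groups, and correlations used 100000 resamples. Alternatives were limma 3.58.1 (pseudocounts 1 and 0.1), DESeq2 1.42.0, RLE, upper-quartile or total scaling, no filter, a mean FPKM of at least 1, the replicate number as a block, control pigs 2 and 5 left out together, and each pig left out. Of these methods, the edgeR fit alone was also run on simulated counts. DESeq2 gave no P for 326 loci, CXCR4 and CXCL10 among them, and these were not counted as called or lost.

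The genes and lists were chosen with earlier results of these data known. Named genes were the 9 genes, the called genes (at most 5 per direction) and the 3 highest in mean FPKM of each list, and for each of the 9 the 3 loci with the largest Pearson's r. Further chemokine receptors around CCR1, CXCL9, CXCL11, GDF9, FIGLA, CCL17, CCL19 and CCL28 and the KEGG terms were added after values were seen. So were the macrophage markers CD14, CSF1R, FCER1G, CD163, C1QA, C1QC, AIF1, MSR1 and TYROBP. Some loci merge several gene names, CCR10, CD68, LCK, DDX58, TPPP3 and OVGP1 among them. Labels and methods describe separate pigs. Other loci, protein and promoter sequences, and transcript-level values were not analysed here, and some genes of the lists are counted but not reported singly here.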

Additional observations from a re-analysis of the deposited data

Results flagged for a closer look

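Within a group of 5 pigs, the highest or lowest value was compared with the nearest other value as a share of the range (Dixon's test), over 48 groups of the 9 genes and 15 list means. Chance alone marks about 1 group in 20 where values are normally distributed and groups are independent. FPKM of the 9 genes was used without a log and all groups share the same pigs, so this share is only a rough guide. In all, 8 groups were marked, 4 of them for the 9 genes, and each was marked by a single pig far from the others of its group.

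rpFSH pig 4 was marked for CXCR4 (9.01 FPKM), CXCL10 (18.3 FPKM) and the mean of the interferon-stimulated genes (4.36). rpFSH pig 3 was marked for CXCL14 (9.35 FPKM). Control pig 2 was marked for CXCL10 (1.46 FPKM) and for the means of the macrophage (2.82), B cell (1.20) and neutrophil (1.18) markers. CCR1 was not marked in either group. No cause of these values was tested.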

How the results depend on the processing

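edgeR called 473 loci, 81 higher and 392 lower. limma called 172 with a pseudocount of 1 and 236 with 0.1, a mean FPKM of at least 1 left 146 (fewer loci tested, CX3CR1 not among them), and single pigs left out gave 373 to 562. Without control pigs 2 and 5 together 306 were higher and 117 lower. With the replicate block 194 were called. The numbers do not pair pigs (r of deviations -0.413 to 0.111), so this is given here alone, and with the block the fold change of CXCL10 was 0.37 on the log2 scale. None of the 6 tested genes was called in any alternative (0 to 0 with single pigs left out). Of the other chemokine system genes, 3 were called without control pigs 2 and 5 together, and 0 to 3 with single pigs left out. The pair CCR2 and CCL2 was the 1 that passed by Pearson's r on CPM. List means with an exact p under 0.05 were 1 at first, 2 on CPM, 2 with loci of 1 gene name only (chosen after seeing the data), and 0 to 2 with single pigs left out. CCL5 changed direction, to 0.60, without control pigs 2 and 5. CXCL10 changed direction without rpFSH pig 4 (-0.38). The causes were not tested. With 5 pigs a group and this spread, a missed threshold does not show that levels were alike.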
